A study of Homo sapiens with 6 samples.

Results

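The IFIT and OAS families are interferon-stimulated antiviral genes, and 8 of their members were followed in MDA-MB-231 cells in which the transcription factor ZNF148 was silenced. The members were IFIT1, IFIT2, IFIT3, IFIT5, OAS1, OAS2, OAS3 and OASL. Each was found by its symbol in the gene column of the deposited expression matrix, and each matched 1 of the 24108 rows. These families were chosen by what the log2 differences of interferon genes had already shown in this same contrast. Their differences between the groups are therefore given as a description. No p-value is printed for them, and where a member is said to be called, this only places it in the fit over the whole matrix and is no evidence for the choice.

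MDA-MB-231 is a human triple-negative breast cancer line of the basal subtype. It was transduced for 48 h with lentivirus and selected with puromycin at 0.5 µg/ml for 24 h. The control cells (shCtr, 3 samples) carried an LKO short hairpin against luciferase, and the silenced cells (shZNF148, 3 samples) carried a short hairpin against ZNF148. Total RNA was sequenced in bulk. One hairpin was set against 1 control hairpin, so loss of ZNF148 and any other effect of that hairpin or its virus cannot be told apart. In bulk RNA, a change in RNA per cell and a change in the share of cells that make it cannot be told apart either.

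IFIT proteins (interferon-induced proteins with tetratricopeptide repeats) bind viral RNA whose ends differ from those of host messenger RNA and keep it from being translated. OAS proteins (oligoadenylate synthetases) are activated by double-stranded RNA and make short adenylate chains that act as a signal to degrade viral and cellular RNA. Both families are classic targets of ISGF3, the transcription factor complex that forms after interferon binds its receptor and that recognises the interferon-stimulated response element (ISRE) in promoters. In tumour cells both belong to the gene set commonly read as an interferon response.

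Expression was given as FPKM (fragments mapped to a gene, scaled to transcript length and sequencing depth), a level per length that allows genes to be compared. ZNF148 was at 3.72, 4.36 and 4.30 FPKM in shCtr replicates 1 to 3 and at 0.914, 0.282 and 0.834 FPKM in shZNF148. The hairpin lowered its target in every silenced sample (log2 fold change −1.63 ± 0.18 SE, adjusted p = 0.0099, limma on log2(FPKM + 1), n = 3 per group), and the lowest level was in shZNF148 replicate 2. That p rose to 0.0603 without shCtr replicate 1 and to 0.0568 without shCtr replicate 3. Vimentin (VIM), a mesenchymal marker of the line, was at 1507 to 1842 FPKM, ESR1 was listed at 0 in all 6 samples and PGR at 0.083 FPKM or less. The ERBB2 row, which the matrix joins with MIR4728, was at 126 and 125 FPKM in replicate 2 of shCtr and of shZNF148, against 20.1 to 24.8 FPKM in the other 4 samples, so those 2 libraries stand apart in a marker that the triple-negative label gives as low. EGFR fell from 66.6 ± 5.05 to 43.5 ± 4.97 FPKM (SD, n = 3, log2 fold change −0.61, adjusted p = 0.0200, limma), and CD44 was at 588 ± 15.5 and 429 ± 33.9 FPKM (−0.46, 0.0185, under 1.5-fold). Markers of other cell types were low for PTPRC (at most 0.115 FPKM), PECAM1 (at most 0.131 FPKM) and CDH1 (at most 0.491 FPKM), whereas CD68 was at 72.8 to 128 FPKM and EPCAM at 8.0 to 11.1 FPKM. Their part in the results was not tested.

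The 4 IFIT genes lie side by side on chromosome 10, and OAS1, OAS3 and OAS2 lie side by side on chromosome 12, with OASL apart from them. In GENCODE release 44 on GRCh38, IFIT2 spans chr10:89283694-89309271, IFIT3 chr10:89327307-89377473, IFIT1 chr10:89392546-89406487 and IFIT5 chr10:89414568-89421605, all on the plus strand. OAS1 spans chr12:112905856-112933219, OAS3 chr12:112938051-112976460 and OAS2 chr12:112978395-113011723, all on the plus strand, and OASL spans chr12:121017763-121039246 on the minus strand. These positions come from the annotation, not from the deposited matrix. IFIT1B, a gene between IFIT3 and IFIT1, is not a member and was listed at 0 in 4 samples and at no more than 0.0582 FPKM in the others.

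RefSeq promoter windows of 300 bases (250 before and 50 after the transcription start, GRCh38.p14) matched 5 members, with a pair of starts for IFIT3. Windows of 5 starts are shown because they place the ISRE letters in genes that differed between the groups and in genes that did not. Capitals mark every match to GAAANNGAAA, the ISRE letters used here, read on both strands (TTTCNNTTTC on the strand shown). All windows are on the plus strand, written 5′ to 3′.
IFIT1, chr10:89392373-89392672: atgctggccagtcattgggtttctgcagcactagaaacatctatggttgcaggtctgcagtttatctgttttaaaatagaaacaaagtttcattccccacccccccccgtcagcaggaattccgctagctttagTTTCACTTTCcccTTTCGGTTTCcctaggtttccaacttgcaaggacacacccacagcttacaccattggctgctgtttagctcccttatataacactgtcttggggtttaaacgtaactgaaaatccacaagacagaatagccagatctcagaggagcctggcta
IFIT3, chr10:89327747-89328046: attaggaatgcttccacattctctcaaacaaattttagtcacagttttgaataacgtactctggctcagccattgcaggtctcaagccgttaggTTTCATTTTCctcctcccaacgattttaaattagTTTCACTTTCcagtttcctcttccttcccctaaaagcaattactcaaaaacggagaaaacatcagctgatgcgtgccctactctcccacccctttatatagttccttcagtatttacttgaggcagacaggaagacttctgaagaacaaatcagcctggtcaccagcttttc
IFIT5, chr10:89414318-89414617: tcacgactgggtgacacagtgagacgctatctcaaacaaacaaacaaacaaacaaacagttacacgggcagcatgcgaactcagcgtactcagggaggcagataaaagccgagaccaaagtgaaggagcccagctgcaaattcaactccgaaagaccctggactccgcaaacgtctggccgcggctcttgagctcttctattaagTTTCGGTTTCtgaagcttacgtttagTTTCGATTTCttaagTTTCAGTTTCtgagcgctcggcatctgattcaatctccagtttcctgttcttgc
OAS1, chr12:112906712-112907011: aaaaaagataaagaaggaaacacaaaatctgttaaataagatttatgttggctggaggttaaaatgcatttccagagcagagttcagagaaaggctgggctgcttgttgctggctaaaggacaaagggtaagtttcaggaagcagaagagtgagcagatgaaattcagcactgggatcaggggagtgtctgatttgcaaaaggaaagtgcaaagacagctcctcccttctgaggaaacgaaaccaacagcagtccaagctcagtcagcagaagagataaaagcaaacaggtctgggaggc
OAS3, chr12:112938224-112938523: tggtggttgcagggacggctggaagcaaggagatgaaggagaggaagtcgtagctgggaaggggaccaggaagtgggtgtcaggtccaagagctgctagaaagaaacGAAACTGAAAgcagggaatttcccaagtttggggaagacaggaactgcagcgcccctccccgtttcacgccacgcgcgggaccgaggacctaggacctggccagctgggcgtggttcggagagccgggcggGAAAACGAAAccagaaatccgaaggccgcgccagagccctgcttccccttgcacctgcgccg

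The letters GAAANNGAAA were found in 5 of the 6 windows and in 4 of the 5 genes, against 3.57% of all 35116 RefSeq windows of this length. IFIT1 held matches that began 116 and 103 bases before the start. IFIT3 held matches at 156 and 122 bases before its first start and at 94 and 51 bases before its second. IFIT5 held 3 matches, at 45, 19 and 4 bases before the start, and OAS3 held 2, at 143 and 12 bases before it. At least 2 separate stretches of ISRE letters were present in 0.131% of all windows. OAS1 had no match to GAAANNGAAA in this window. It does hold ggaaacgaaacc, where the GAAA letters stand closer together than the search allowed, so this stretch was not counted. The OAS1 window also held TTCNNNGAA, the letters of the gamma-activated site, at 168 bases before the start (7.66% of all windows). The C-rich letters CCCTCCCC were searched because ZNF148 is known to bind C-rich promoter elements. They were found only in OAS3, at 90 bases before the start (13.6% of all windows). Only these exact letters were searched, so other runs of C, such as the one that opens with ttccccacccc in the IFIT1 window, were not counted. TATAAA, also read on both strands, was found only in the first IFIT3 window, at 30 bases before the start (11.5%). That match lies on the minus strand, opposite to the gene, and reads TTTATA on the strand shown. A match is a description of these letters and is neither a binding site nor a cause of any difference below.

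All 8 members passed the filter on low values (1 FPKM or more on average across all samples), which 11777 rows passed. OAS1 passed only through its silenced samples, since its shCtr level was under 1 FPKM, and a gene that passes in this way had to differ. It was also called when the filter was dropped. In 7 of the 8 members every shZNF148 sample was above every shCtr sample, and 20.0% of all rows tested separated in that way. A row was called higher when its adjusted p was under 0.05 and its change exceeded 1.5-fold, both on the log2(FPKM + 1) scale. By that rule 5 of the 8 members were called higher (IFIT1, IFIT2, IFIT3, OAS1 and OAS2), against 1.83% of rows called higher and 3.66% called lower over the whole matrix. The median log2 difference of the members was 1.23, against 0.01 over all rows. The rule used this contrast, so the counts only describe which genes it picked.

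**Figure D1:**
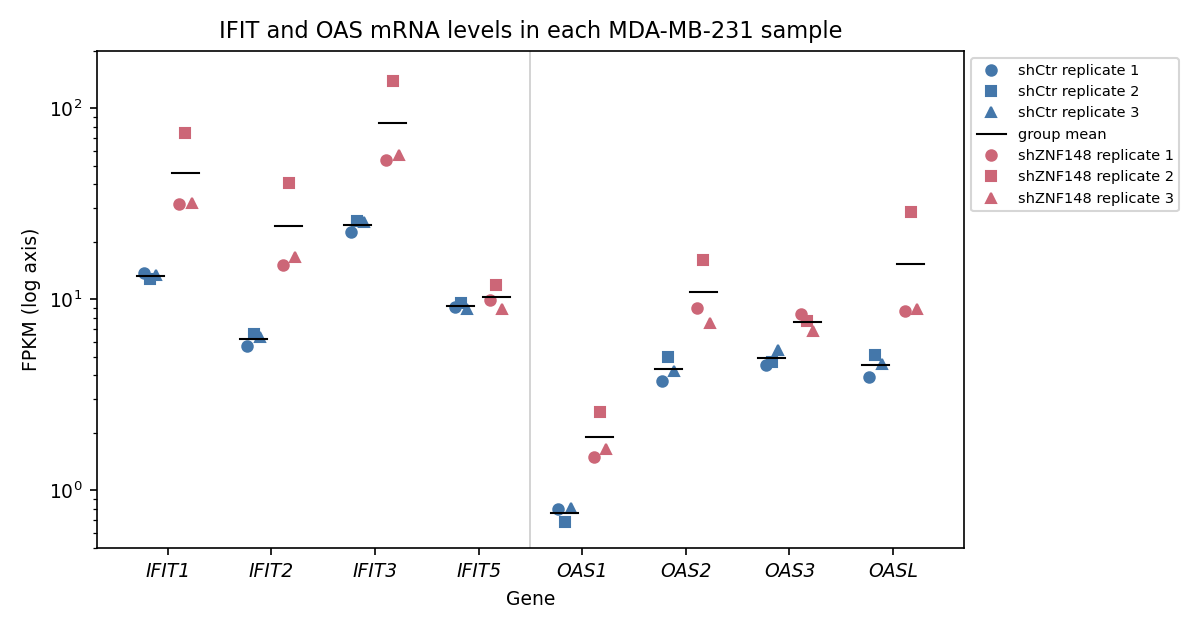
FPKM of each member in the 6 samples on a log axis, with shCtr and shZNF148 replicates as separate points and group means marked. The groups are apart in every member except IFIT5, and shZNF148 replicate 2 lies above replicates 1 and 3 in every member except OAS3.

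IFIT1 senses RNA that lacks cap methylation and blocks its translation. It was at 13.7, 12.8 and 13.4 FPKM in shCtr and at 31.4, 74.4 and 31.8 FPKM in shZNF148. The control samples were close together, and silenced replicates 1 and 3 were alike while replicate 2 was far above them. The means were 13.3 ± 0.475 and 45.9 ± 24.7 FPKM (SD, n = 3), a ratio of 3.45, and the log2 difference was 1.59 ± 0.32 (SE).

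IFIT2, which binds AU-rich RNA and promotes cell death when overexpressed, was the lowest of the 4 IFIT genes in shCtr. Its levels were 5.72, 6.57 and 6.38 FPKM in shCtr and 15.1, 40.7 and 16.7 FPKM in shZNF148. The ratio of its means, 3.89, was the highest of the 8 members (6.22 ± 0.443 and 24.2 ± 14.3 FPKM, log2 difference 1.66 ± 0.34 SE). The groups did not overlap, and the silenced samples had the same shape as those of IFIT1.

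IFIT3, the partner that stabilises IFIT1 and increases its hold on viral RNA, was the most abundant member in both groups. It was at 22.6, 25.8 and 25.4 FPKM in shCtr and at 53.6, 140 and 57.0 FPKM in shZNF148. Replicate 2 was again the highest silenced sample, and the lowest silenced sample was still above the highest control. The means were 24.6 ± 1.74 and 83.4 ± 48.7 FPKM, a ratio of 3.39, with a log2 difference of 1.58 ± 0.35 (SE).

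IFIT5, which binds RNA with a triphosphate end and acts without the other IFIT proteins, was the exception. Its levels were 9.13, 9.56 and 8.85 FPKM in shCtr and 9.87, 11.9 and 8.90 FPKM in shZNF148. The groups overlapped, since shZNF148 replicate 3 lay inside the control range. The log2 difference was 0.13 ± 0.11 (SE), and the ratio of means was 1.11 (9.18 ± 0.361 and 10.2 ± 1.54 FPKM). IFIT5 was not called, although its window held 3 ISRE matches and its gene lies next to IFIT1.

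OAS1, a synthetase with a single catalytic unit, was the least abundant member. It was at 0.803, 0.680 and 0.804 FPKM in shCtr and at 1.496, 2.58 and 1.64 FPKM in shZNF148. Every silenced sample was above every control, though all 6 levels were low. The ratio of means was 2.50 (0.762 ± 0.0709 and 1.90 ± 0.590 FPKM). The log2 difference of 0.70 ± 0.17 (SE) was just inside the 1.5-fold limit, which is 0.585 on this scale, and the added 1 FPKM makes that difference smaller than the ratio for so low a gene.

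OAS2, a synthetase with a repeated unit, was at 3.73, 5.01 and 4.19 FPKM in shCtr and at 9.04, 16.0 and 7.51 FPKM in shZNF148. The groups did not overlap, and replicate 2 was highest in both. The ratio of means was 2.52 (4.31 ± 0.649 and 10.9 ± 4.55 FPKM), with a log2 difference of 1.10 ± 0.26 (SE).

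OAS3, the longest synthetase, differed from its neighbours in how the silenced samples were ordered. It was at 4.54, 4.71 and 5.46 FPKM in shCtr and at 8.34, 7.74 and 6.86 FPKM in shZNF148, so replicate 1 was the highest silenced sample. The means were 4.90 ± 0.486 and 7.65 ± 0.749 FPKM, a ratio of 1.56. Its log2 difference of 0.55 ± 0.11 (SE) was just outside the 1.5-fold limit, so it was not called. The added 1 FPKM makes that difference smaller than the ratio of means, which exceeds 1.5. OAS3 was called in 2 of 15 alternative fits: with 0.1 FPKM added instead (0.63) and without shZNF148 replicate 3 (0.62).

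OASL resembles the synthetases but makes no adenylate chains, and is known to raise signalling from the RNA sensor RIG-I. It was at 3.92, 5.13 and 4.57 FPKM in shCtr and at 8.72, 28.6 and 8.85 FPKM in shZNF148. The ratio of means was 3.39 (4.54 ± 0.607 and 15.4 ± 11.4 FPKM), and the log2 difference of 1.36 ± 0.42 (SE) had the widest error of the 8 members. OASL was not called, although the groups did not overlap.

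Compared replicate by replicate, the ratio of shZNF148 to shCtr exceeded 1 at all 3 replicate numbers for every member. In replicate 2 the ratio was 5.81 for IFIT1, 6.20 for IFIT2, 5.41 for IFIT3 and 5.57 for OASL. The same 4 genes had ratios of 2.29, 2.64, 2.37 and 2.23 in replicate 1 and of 2.38, 2.62, 2.25 and 1.94 in replicate 3. IFIT5 lay between 1.006 and 1.25. OAS1 was at 1.86, 3.79 and 2.04 in replicates 1 to 3, and OAS2 was at 2.43, 3.20 and 1.79. OAS3 had its highest ratio, 1.84, in replicate 1, then 1.64 and 1.26. The replicate numbers name the samples, and whether they pair them across the groups was not settled.

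**Figure D2:**
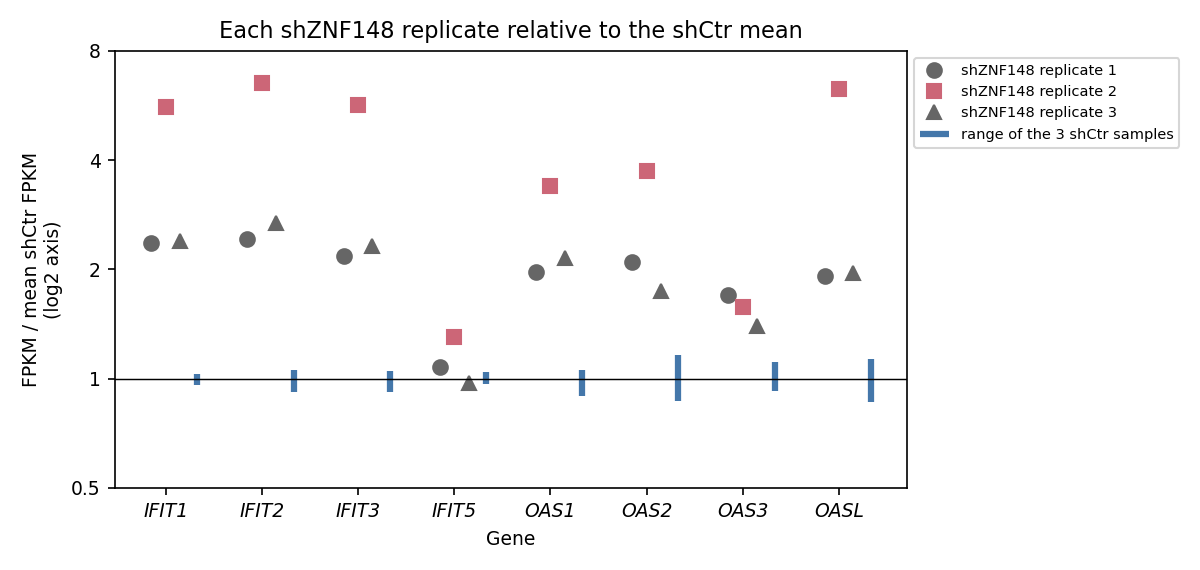
FPKM of each shZNF148 replicate divided by the mean of the 3 shCtr samples for each member, on a log2 axis with a line at 1, and blue bars for the range of the shCtr samples. Replicate 2 stands far above replicates 1 and 3 for IFIT1, IFIT2, IFIT3 and OASL, replicate 1 is the highest for OAS3, and replicate 3 of IFIT5 lies within the shCtr range.

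The height of shZNF148 replicate 2 was measured against replicates 1 and 3 of the same group. Its level divided by their mean was 2.35 for IFIT1, 2.56 for IFIT2, 2.52 for IFIT3 and 3.25 for OASL, and 1.94 for OAS2 and 1.65 for OAS1. It was 1.27 for IFIT5 and 1.02 for OAS3. Over 11715 rows the same ratio had a median of 1.00 and lay between 0.638 and 1.49 from the 5th to the 95th percentile, and only 1.30% of rows reached 2. Replicate 2 was the highest silenced sample in 7 of the 8 members, against 39.95% of the rows tested. It also had the least ZNF148, and whether the depth of silencing had a part in the height of these genes was not tested. With replicate 2 set aside, the mean of replicates 1 and 3 was still 2.38 times the shCtr mean for IFIT1, 2.56 times for IFIT2, 2.25 times for IFIT3, 2.05 times for OAS1, 1.92 times for OAS2, 1.94 times for OASL, 1.55 times for OAS3 and 1.02 times for IFIT5.

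Refitted without shZNF148 replicate 2, the log2 differences were 1.19 for IFIT1, 1.23 for IFIT2, 1.139 for IFIT3, 0.81 for OAS2 and 0.83 for OASL, and these 5 genes were called. Those of OAS1, OAS3 and IFIT5 were 0.54, 0.54 and 0.03, and they were not called. Without any one of the 3 shCtr replicates, no member was called by limma with Benjamini-Hochberg adjustment. The count at an unadjusted p under 0.05 was 7 of 8 each time, which supports nothing here because the genes were picked on this contrast. Without shZNF148 replicate 1 only IFIT2 was called. Over the whole matrix, 164 of 11758 rows were called higher without shZNF148 replicate 2 and 79 of 11770 without shZNF148 replicate 1. Without shCtr replicates 1, 2 and 3, rows called higher were 3 of 11765, 76 of 11761 and 7 of 11759.

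The order of levels differed between the groups. In shCtr it ran IFIT3, IFIT1, IFIT5, IFIT2, OAS3, OASL, OAS2 and OAS1. The ranges of OAS3 and OASL overlapped, as did those of OASL and OAS2, and the other neighbours did not. In shZNF148 it ran IFIT3, IFIT1, IFIT2, OASL, OAS2, IFIT5, OAS3 and OAS1. There the ranges of successive genes overlapped from IFIT3 down to IFIT5, mainly because replicate 2 stretched them, while IFIT5, OAS3 and OAS1 did not overlap with one another. IFIT3 moved from percentile 69.2 of the levels of all rows tested to percentile 91.6, whereas OAS1 stayed among the lowest, at percentile 0.569 and then 8.38.

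Summed over the 4 genes, the IFIT family was at 51.2, 54.7 and 54.0 FPKM in shCtr and at 110, 267 and 114 FPKM in shZNF148. The OAS family, OASL included, was at 12.99, 15.5 and 15.02 FPKM in shCtr and at 27.6, 54.9 and 24.9 FPKM in shZNF148. The ratios of the group means were 3.07 for IFIT and 2.47 for OAS.

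The share of each IFIT gene in its family's total did not overlap between the groups. It was lower in shZNF148 for IFIT5 and higher for IFIT1, IFIT2 and IFIT3. Shares of a total are not independent, and the level of IFIT5 itself overlapped between the groups. IFIT5 made up 17.2% ± 0.758 of the IFIT total in shCtr and 7.07% ± 2.33 in shZNF148 (SD, n = 3), with 4.47% in replicate 2. IFIT3 supplied 46.1% ± 1.69 and 50.3% ± 1.87, IFIT1 25.0% ± 1.74 and 28.1% ± 0.406, and IFIT2 11.7% ± 0.431 and 14.5% ± 0.767. In the OAS family, OAS3 went from 33.9% ± 3.15 to 24.0% ± 8.66 and OASL from 31.2% ± 1.59 to 39.7% ± 10.8. Both OAS shifts were largest in shZNF148 replicate 2, where OAS3 was at 14.1% and OASL at 52.0%. In replicates 1 and 3 OAS3 was at 30.2% and 27.6% and OASL at 31.6% and 35.6%, against 30.3% to 36.3% and 30.1% to 33.03% in shCtr, and the groups overlapped for OASL. OAS2 was at 29.6% ± 2.33 and 30.7% ± 1.84 and OAS1 at 5.30% ± 0.900 and 5.57% ± 0.950, differences within the spread of the samples.

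**Figure D3:**
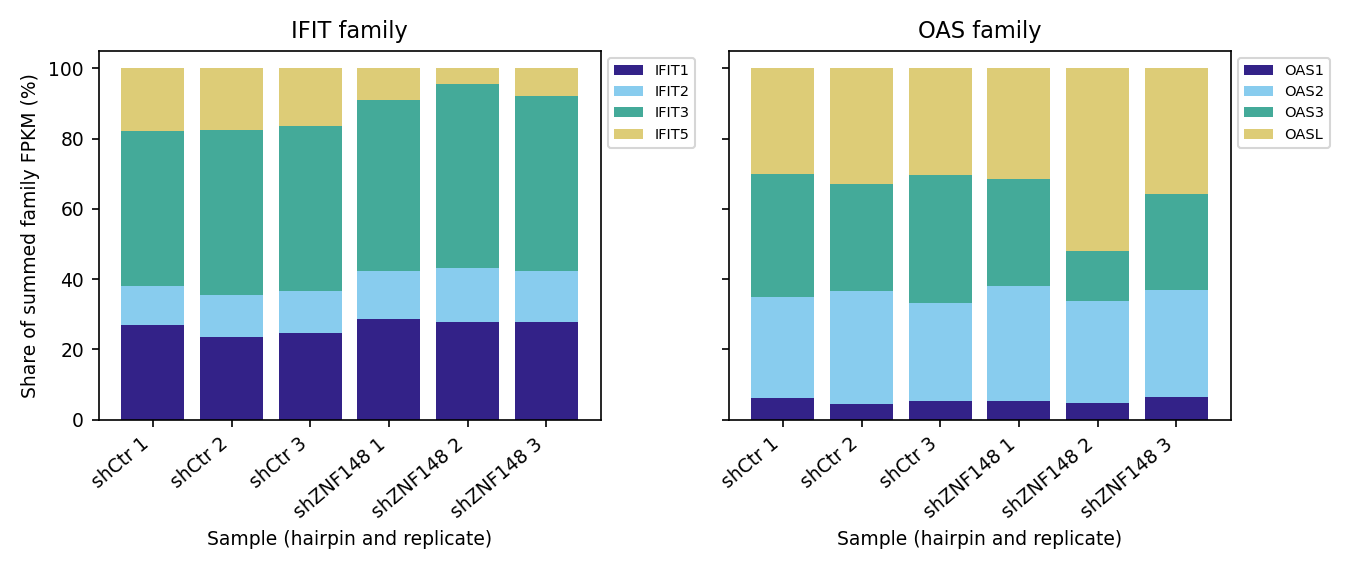
Share of each gene in its family's summed FPKM, in percent, as stacked bars for the 6 samples with IFIT and OAS apart. The share of IFIT5 is smaller in every shZNF148 sample than in every shCtr sample, and those of IFIT1, IFIT2 and IFIT3 are larger. OASL reaches 52.0% of the OAS sum in shZNF148 replicate 2.

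Within the groups, members other than OAS3 had like deviations, mostly through shZNF148 replicate 2. In shCtr they shared no order. The highest shCtr sample was replicate 1 for IFIT1, replicate 3 for OAS1 and OAS3, and replicate 2 for the other members. Deviations from the group mean were correlated over the 6 samples for each of 28 pairs, as a description, since all genes share the same libraries and most of the spread comes from shZNF148 replicate 2. The 21 pairs without OAS3 had a median Pearson r of 0.952 and ran from 0.786 to 0.999, the highest being IFIT2 with IFIT3. The 7 pairs with OAS3 had a median of 0.102 and ran from 0.0392 to 0.257. Over all pairs of rows tested the median was 0.000949.

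The genes outside both families whose levels followed the mean of the members most closely over all 6 samples were MYD88, PEG10, ZC3HAV1, B4GALT5 and GBP4, with Pearson r from 0.997 to 0.9997. This likeness reads the difference between the groups as well as the spread within them. These genes were picked as the closest among the 11777 rows tested, over only 6 samples. A high r and a difference between the groups were therefore favoured by the choice. MYD88, the adaptor of Toll-like receptors, was at 15.9, 16.7 and 16.6 FPKM in shCtr and at 22.2, 29.9 and 21.7 FPKM in shZNF148 (log2 fold change 0.54, under 1.5-fold). ZC3HAV1 is an antiviral protein that binds CpG-rich RNA, and GBP4 is an interferon-induced GTPase. By deviations from the group means alone, the closest were ZNF616, SSU72, MYD88, KIF20A and PEG10.

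The proteins that work with or against the families were listed next. Of the 8 listed partners and antagonists 6 were tested and none was called by limma, beside 1.83% of all rows called higher and 3.66% lower. Of these 6, 1 was at an unadjusted p under 0.05.

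That gene was CMTR2, which methylates the second transcribed nucleotide of capped RNA, a mark that hides RNA from IFIT1. It was at 5.99, 7.71 and 6.29 FPKM in shCtr and at 8.88, 9.87 and 9.05 FPKM in shZNF148 (log2 fold change 0.43 ± 0.11 SE, adjusted p = 0.0452, under 1.5-fold). CMTR1, which methylates the first nucleotide, had a log2 fold change of −0.04 (adjusted p = 0.826), and RNMT, the cap methyltransferase, of −0.08 (0.402). ABCE1, a ribosome recycling factor known to counteract OAS signalling, was at −0.21 (0.299), and PDE12, which degrades the adenylate chains, at −0.01 (0.950). EIF3E, a subunit of the initiation factor that IFIT1 and IFIT2 bind, was at −0.25 (0.178). EIF3C, whose row is joined with EIF3CL, was under the filter, and its groups overlapped.

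None of the 12 listed interferon ligands reached the filter, and 11 were listed at 0 in all 6 samples. IFNL1, a type III interferon, was listed at 0, 0 and 0.163 FPKM in shCtr and at 0, 0.462 and 0.213 FPKM in shZNF148. Of 20 receptor and signalling genes 18 were tested and none was called by limma, with 7 at an unadjusted p under 0.05. Over all rows 1.83% were called higher and 3.66% lower, and 1600 of 11777 passed the adjusted p. The share of all rows at that unadjusted p was not counted. IFNAR1, a chain of the type I interferon receptor, was the 1 gene of the 18 whose adjusted p passed, without reaching 1.5-fold. It was at 9.59, 10.4 and 10.2 FPKM in shCtr and at 13.8, 16.0 and 14.98 FPKM in shZNF148 (log2 fold change 0.52 ± 0.08 SE, adjusted p = 0.0172). STAT2 and IRF9, which encode subunits of ISGF3, had log2 fold changes of 0.16 and 0.36 (adjusted p = 0.473 and 0.0968), and neither passed.

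Among sensors of foreign nucleic acid 11 of 12 were tested and 1 was called higher, beside 1.83% of all rows. TLR3, the endosomal receptor for double-stranded RNA, was at 1.19, 0.870 and 1.31 FPKM in shCtr and rose to 3.08, 3.96 and 3.24 FPKM in shZNF148 (log2 fold change 1.06 ± 0.14 SE, adjusted p = 0.0118, limma). That call was lost without shCtr replicate 1 and without shCtr replicate 3, where 3 and 7 rows were called higher over the whole matrix. RIGI, whose row is joined with TOPORS, had a log2 fold change of 0.43 (adjusted p = 0.0378), under 1.5-fold, and IFIH1, the sensor of long double-stranded RNA, of 0.89 (0.0735). IKBKE (0.39, adjusted p = 0.0217, limma) and MAVS (0.31, 0.0309) from this list also passed under 1.5-fold. In all, 4 of the 11 tested passed the adjusted p, beside 1600 of 11777 rows.

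Of 46 other interferon-stimulated effectors 40 were tested, and 9 were called higher and 2 lower. That is a share of 22.5% called higher beside the 1.83% of all rows. GBP1 and GBP2 share a row, so the 40 genes hold 39 distinct rows. The list was drawn up with earlier results of these samples known and its count is no independent evidence of direction. Among the effectors that passed the filter, the largest rises were in IFI44 (log2 fold change 1.36, adjusted p = 0.0463, limma), HERC6 (1.22, 0.0286), SAMD9 (1.19, 0.0198) and SAMD9L (1.15, 0.0288), the last pair being restriction factors against poxviruses. IFI35 (0.91, adjusted p = 0.0223), RTP4 (0.90, 0.0495), ZC3HAV1 (0.87, 0.0341), the cytosolic antibody receptor TRIM21 (0.68, 0.0185) and SP110 (0.62, 0.0407) were also called higher. RTP4, like OAS1, passed the filter only through its silenced samples (0.835 ± 0.255 FPKM in shCtr and 2.51 ± 1.07 FPKM in shZNF148). When the filter was dropped, RTP4, IFI44, SP110 and ZC3HAV1 were not called, whereas IFI35, HERC6, SAMD9, SAMD9L and TRIM21 still were. Under the filter, the chemokine CXCL11 was at 0.0802, 0.147 and 0.0763 FPKM in shCtr and at 0.781, 1.08 and 0.598 FPKM in shZNF148, a ratio of means of 8.08, and it was called when the filter was dropped. RSAD2, which encodes viperin, was at 0.0339, 0 and 0.0644 FPKM in shCtr and at 0.330, 0.970 and 0.463 FPKM in shZNF148, and was not called when the filter was dropped. LAMP3, a lysosomal membrane protein, and IFITM2, which blocks viral entry, fell by 1.63 (adjusted p = 0.0132, limma) and 0.75 (0.0120) on the log2 scale. IFITM1 was at 30.6 ± 1.38 FPKM in shCtr and 14.1 ± 6.55 FPKM in shZNF148 (log2 fold change −1.19, adjusted p = 0.0653, limma). Its groups did not overlap, but it was not called. Of the 40 tested effectors, 34 had a difference above 0 and 6 below. ISG15, the ubiquitin-like modifier, was at 68.2, 51.7 and 60.0 FPKM in shCtr and at 80.8, 173 and 84.0 FPKM in shZNF148 (log2 fold change 0.81, adjusted p = 0.105). MX1, a GTPase that traps viral capsids, had a log2 fold change of 0.35 (adjusted p = 0.118).

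The effectors resembled the families in which silenced sample was highest. Replicate 2 was the highest shZNF148 sample in 35 of the 40 tested effectors, with GBP1 and GBP2 counted apart, and in all 9 called higher. Without any one of the shCtr replicates no effector was called higher by limma, with 13 to 17 at an unadjusted p under 0.05. Without shZNF148 replicate 1, called effectors numbered 4. The counts over all rows in these refits are those given with the members. The median log2 fold change was 0.32 over the effectors, 0.29 over the sensors, 0.10 over receptors and signalling and −0.06 over the partners.

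**Figure D4:**
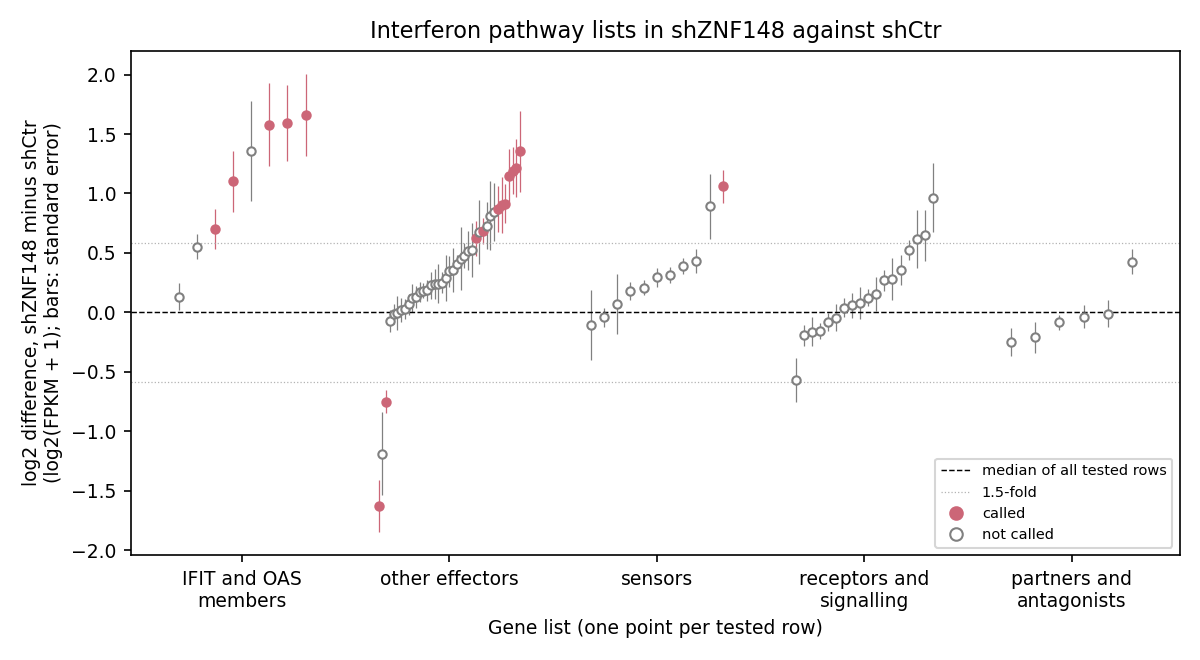
log2 difference (shZNF148 minus shCtr, log2(FPKM + 1), bars show the standard error) of each tested row in 5 lists, with called genes filled and dotted lines at 1.5-fold. The members reach 1.66, 9 effectors and TLR3 are filled above zero, LAMP3 and IFITM2 are filled below it, and no receptor, signalling or partner gene is filled.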

How the data were processed

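Per the labels, total RNA from 6 samples of MDA-MB-231 (3 per group) was sequenced. The authors deposited 1 matrix of normalised FPKM for 24108 gene rows, and all its sample columns were used (0 belonged to other samples). The submitters' processing notes name bcl2fastq 2.17.1.14, TopHat2 2.0.14, Cufflinks 2.2.1 and Cuffnorm 2.2.1 with builds hg18 and hg19, whereas the published methods name Salmon, GRCh38 and DESeq2, so which route made the matrix is unsettled. FPKM hold no counts, so DESeq2 was not run and the depth is unknown, with no counting intervals given. Steps between low values put the samples' relative depth at 0.805 (shZNF148 replicate 3) to 1.13 of shCtr replicate 1. Summed FPKM ran from 469594 to 507312, and 141 rows exceeded 10 FPKM in 1 sample and were at 0 in another.

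The 11777 rows averaging 1 FPKM or more were fitted on log2(FPKM + 1) with limma 3.58.1 in R 4.3.3 (condition alone, trended empirical Bayes, two-sided, Benjamini-Hochberg over all rows). The added 1 FPKM understates changes of low genes. Called means adjusted p under 0.05 and over 1.5-fold. Rows at an unadjusted p under 0.05 were not counted over the whole matrix, so such counts only describe their lists. The fit was tested on simulated data. Promoter letters were searched with Python 3.11.15, and figures drawn with matplotlib 3.10.9. Nothing says that replicates were separate cultures, so p-values measure the spread between these samples, which may be technical. Where genes share a row, they cannot be told apart.

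The members and lists were chosen with earlier results of these data known. Named genes were all members, ZNF148, the partners, ligands above 0 and the called genes of each other list (at most 12). STAT2, IRF9, ISG15, MX1, RIGI, IFIH1 and the 5 rows most like the members by each of 2 measures were also named. IFNAR1, IKBKE, MAVS, IFITM1, CXCL11 and RSAD2 were named after their values were seen. Some listed genes are counted but not reported here. Alternatives changed the pseudocount, filter, scaling, trend, block, row summing and the samples.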

Additional observations from a re-analysis of the deposited data

How the results depend on the processing

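No member, list or row count changed direction under any of the 15 alternatives run, and 8 of the 15 left the counts of called members, effectors and rows all within 1.5 times. Of the 8 members 5 were called; 3 were (IFIT1, IFIT2 and OAS1) with no filter, and 2 (IFIT2 and OAS2) with the replicate block. With a pseudocount of 5 FPKM and with the replicate block, called effectors went from 9 to 4 in each case, rows called higher from 216 to 76 and 99, and rows called lower from 431 to 204 and 216. Called signalling and sensor genes went from 1 to 0 by limma with a pseudocount of 5 FPKM (13 at an unadjusted p under 0.05) and to 2 with the replicate block. The causes were not tested. Whether the replicate numbers pair the samples was not settled, since 3 samples per group are too few to tell. Over all rows tested, same-numbered deviations correlated at 0.001, −0.088 and 0.030. Of the samples, 0 of 3 shCtr and 1 of 3 shZNF148 correlated best with their own number. The ERBB2 row was high in replicate 2 of both groups. Leaving out 1 replicate at a time gave 0 to 5 called members, 0 to 7 effectors, 0 to 3 signalling and sensor genes, 0 partners, 3 to 222 rows called higher, 26 to 397 rows called lower and a ZNF148 log2 fold change of −1.74 to −1.45. The lowest counts came without a shCtr replicate. Over the 15 alternatives the log2 difference ran from 1.19 to 1.80 for IFIT1, 1.23 to 1.91 for IFIT2, 1.139 to 1.82 for IFIT3, 0.03 to 0.22 for IFIT5, 0.26 to 1.18 for OAS1, 0.73 to 1.31 for OAS2, 0.35 to 0.63 for OAS3 and 0.83 to 1.63 for OASL.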
